A study of Homo sapiens with 6 samples.

Results

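The matrix metalloproteinases (MMPs) and their tissue inhibitors (TIMPs) described here were 10 genes of the 11963 that the array annotation names alone: MMP1, MMP2, MMP3, MMP7, MMP9, MMP14, MMP15, TIMP1, TIMP2 and TIMP3. They were chosen by name, together with all 16 probe sets (sets of short oligonucleotides, each giving 1 signal) annotated to 1 of them and to no other gene. Of these probe sets 10 belonged to the 7 MMP genes and 6 to the 3 TIMP genes. MMP14 and TIMP3 had 4 probe sets each and the other 8 genes had 1 each. The cells were MDA-MB-231, a long-established line of human breast cancer cells grown in culture. Cells of both groups were electroporated with an siRNA, a short duplex RNA that directs the breakdown of a matching transcript, and RNA was taken 3 days later. In the siPTHrP group the siRNA was directed against parathyroid hormone-related protein (PTHrP), a secreted peptide known for its part in bone metastasis of breast cancer, and in the control group it was siLuc. The study asked which genes respond to siPTHrP. Each group held 3 arrays (Affymetrix HG-U133A), 1 from each of 3 independent experiments. All arrays come from this 1 cell line, and the labels do not say how many siRNA sequences were used. Signals are MAS5 intensities in arbitrary units.

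MMPs are zinc-dependent endopeptidases that are made as inactive pro-enzymes and cleave collagens, laminins and other proteins of the extracellular matrix once their pro-domain is removed. TIMPs bind the active site of these enzymes and block it. In breast cancer both families are studied for their roles in invasion and in bone metastasis.

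With siPTHrP the average signal was lower for every MMP probe set, 10 of 10, and higher for 5 of the 6 TIMP probe sets. Of the 13329 probe sets that passed a filter on low signal, 6335 were lower and 6994 higher. MMP14 alone gave 4 of the MMP probe sets. MMP15 lay under the filter, in a decile of signal with 89.2% of probe sets lower, and MMP2, MMP3 and MMP7 in 1 with 61.8% lower. TIMP1 and MMP1 lay in a decile with 32% lower, TIMP2 in 1 with 43.9% and the TIMP3 probe sets in deciles with 38.1% to 51.5%. MMP1, the interstitial collagenase, averaged 0.396-fold of the siLuc level and MMP14, a membrane-anchored MMP, 0.695-fold, while TIMP1, a secreted inhibitor, averaged 1.21-fold. None of these differences passed the threshold after adjustment over all probe sets tested. The direction of MMP7, MMP15, TIMP2 and 1 TIMP3 probe set depended on the scaling or on a single array or experiment, as given at each gene.

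The start regions of MMP14 and TIMP1 are printed because these were the gene of each family with the narrowest error on its difference, and that of MMP7 because it heads a block of MMP genes described further on. Each is the RefSeq sequence of GRCh38.p14 from 250 bases before to 50 bases after the annotated transcript start, printed 5′ to 3′ on the strand of the gene. MMP14 lies at chr14:22836335-22836634 on the plus strand, TIMP1 at chrX:47582186-47582485 on the plus strand and MMP7 at chr11:102530698-102530997 on the minus strand. Capitals mark 4 motifs searched on both strands: AP-1 (TGANTCA), ETS (AGGAAG), GC box (GGGCGG) and TATA box (TATAAA).
MMP14 start region: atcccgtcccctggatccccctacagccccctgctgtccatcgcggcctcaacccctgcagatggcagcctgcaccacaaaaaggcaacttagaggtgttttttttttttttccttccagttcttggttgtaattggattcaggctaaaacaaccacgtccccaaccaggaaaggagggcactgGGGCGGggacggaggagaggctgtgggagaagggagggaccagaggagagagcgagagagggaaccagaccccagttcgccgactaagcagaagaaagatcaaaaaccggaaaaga
TIMP1 start region: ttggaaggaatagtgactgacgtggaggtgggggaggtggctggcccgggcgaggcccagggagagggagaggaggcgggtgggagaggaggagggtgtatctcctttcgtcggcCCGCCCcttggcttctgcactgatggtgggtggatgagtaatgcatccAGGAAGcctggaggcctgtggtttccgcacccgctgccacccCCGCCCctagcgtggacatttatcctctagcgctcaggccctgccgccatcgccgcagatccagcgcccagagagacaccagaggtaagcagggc
MMP7 start region: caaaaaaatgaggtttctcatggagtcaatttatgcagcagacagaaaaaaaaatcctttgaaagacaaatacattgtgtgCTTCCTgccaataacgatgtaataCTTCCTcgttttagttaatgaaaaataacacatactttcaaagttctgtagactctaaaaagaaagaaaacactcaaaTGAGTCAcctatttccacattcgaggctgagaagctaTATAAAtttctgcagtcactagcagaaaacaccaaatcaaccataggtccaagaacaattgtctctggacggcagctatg

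The MMP14 window held 1 GC box, 66 bases upstream of the start, and none of the other 3 motifs. The TIMP1 window held 1 ETS match 87 bases upstream and 2 GC boxes 135 and 45 bases upstream. In the MMP7 window the AP-1 match lay 67 bases upstream, the ETS matches 169 and 145 bases upstream and the TATA box 30 bases upstream. Among 35116 windows of the same length, 7.71% held the AP-1 letters, 33.6% the ETS letters, 45% the GC box and 11.5% the TATA box. Base composition differed too: G and C made up 35.7% of the MMP7 window, 55% of that of MMP14 and 65% of that of TIMP1, against a median of 58.7% over all windows. MMP15 and TIMP3 windows, 75.3% and 72.7% G and C, each held 5 GC boxes and no AP-1, ETS or TATA match. These 5 members were matched in the table used here, and MMP1, MMP2, MMP3, MMP9 and TIMP2 were not. A match of letters is a description of the window and not a binding site.

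Before the results, the arrays themselves differed. The siLuc array of experiment 1 stood apart, with a rank correlation of 0.716 to 0.725 with the other 5 arrays, which correlated with each other at 0.882 to 0.960, and 90.1% of its values carried decimals where the others were whole numbers. The siLuc sample without a number in its title was taken as experiment 1 by elimination, and 1 siLuc sample carries number 3 in its title and 2 in its description. The title was followed, and every difference given by experiment rests on this numbering. The median signal per array was 887.2, 652 and 659 for siLuc in experiments 1, 2 and 3, and 577, 559 and 593 for siPTHrP. Every siPTHrP array thus had a lower median than any siLuc array. All 6 markers of MDA-MB-231 (VIM, CD44, CAV1, EGFR, AXL and MSN) passed the filter on low signal, with a summed signal of 201900 to 226700 in siLuc and 169600 to 231600 in siPTHrP. Of the 7 fibroblast markers 3 passed, with sums over the list of 5302 to 5625 in siLuc and 3662 to 4252 in siPTHrP. Of the 4 endothelial markers PECAM1 alone passed, and the list summed to 1532 to 4237 in siLuc and 678 to 1539 in siPTHrP. PECAM1 itself read 2013, 1056 and 1460 with siLuc and 791, 419 and 481 with siPTHrP, a log2 difference of -1.40 (unadjusted limma p 0.00532, adjusted 0.328), about the size of that of MMP1. Of the blood cell list, HBB, which is an erythroid gene, and the T cell marker CD3E passed. Without HBB, left out after the values were seen, the 4 leukocyte markers on the array summed to 3388, 935 and 966 in siLuc and 836, 855 and 1178 in siPTHrP, so that the groups overlapped. Of 7 luminal markers GATA3, ERBB3, ESR1 and FOXA1 passed and EPCAM, CDH1 and PGR did not, with sums over the list of 2917 to 6271 in siLuc and 2728 to 2974 in siPTHrP. Fibroblast sums, PECAM1 and HBB were thus lower on every siPTHrP array than on any siLuc array, as were 4 MMP signals. Single markers were mixed. DCN and, under the filter, KDR, PDGFRA and LUM were also lower on every siPTHrP array. That held for 13.5% of all probe sets in the signal decile of DCN and 12.6% in that of KDR. The share was 18.9% in the decile of PDGFRA, 25% in that of LUM and 12.4% in that of PECAM1 and HBB. LUM was near the floor, at 3 on each siPTHrP array. COL1A1, COL1A2, PDGFRB, POSTN, VWF and CDH5 overlapped between groups. EPCAM, under the filter, was higher on every siPTHrP array than on any siLuc array (log2 1.75), as in 1.17% of probe sets of its decile. The part of these marker signals in the results was not tested. The transcript targeted by siPTHrP was not analysed here, so the knockdown was not checked.

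The test was limma's moderated linear model on log2(signal + 16), siPTHrP minus siLuc, with the experiment as a block, over 13329 probe sets whose mean log2 signal was at or above the 40th percentile. Folds are on this scale, which understates the change of dim probe sets. Of the members 15 of 16 probe sets passed the filter, and MMP15 did not. After Benjamini-Hochberg adjustment 0% of the probe sets tested passed 0.05, members included, and the smallest adjusted p over all of them was 0.133. At an unadjusted limma p under 0.05, 2 member probe sets were lower with siPTHrP, MMP1 and 1 of MMP14, against 5.36% of all probe sets tested. No member probe set was higher at that threshold, against 6.77%. With 3 arrays a group, the number of arrays limits the precision. The limma p-values rest on the spread between these samples, in part borrowed from other probe sets of like signal. They measure no spread beyond these samples.

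The siPTHrP arrays lay entirely below the siLuc arrays for 4 member probe sets, those of MMP1, MMP3 and MMP9 and the brightest of MMP14, against 9.69% of all probe sets tested. They lay entirely above for 2, TIMP1 and 1 of TIMP3, against 8.94%. Within experiments, 6 of the 10 MMP probe sets were lower with siPTHrP in 3 of 3, against 19% of all, and 2 of the 6 TIMP probe sets were higher in 3 of 3, against 19.1%. Such counts depend in part on how the experiments were numbered. The median log2 difference by gene was -0.60 over the 6 MMP genes that passed the filter and 0.28 over the 3 TIMP genes, beside 0.03 over all probe sets tested. Probe sets of 1 gene share a transcript and are not independent of each other.

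**Figure D1:**
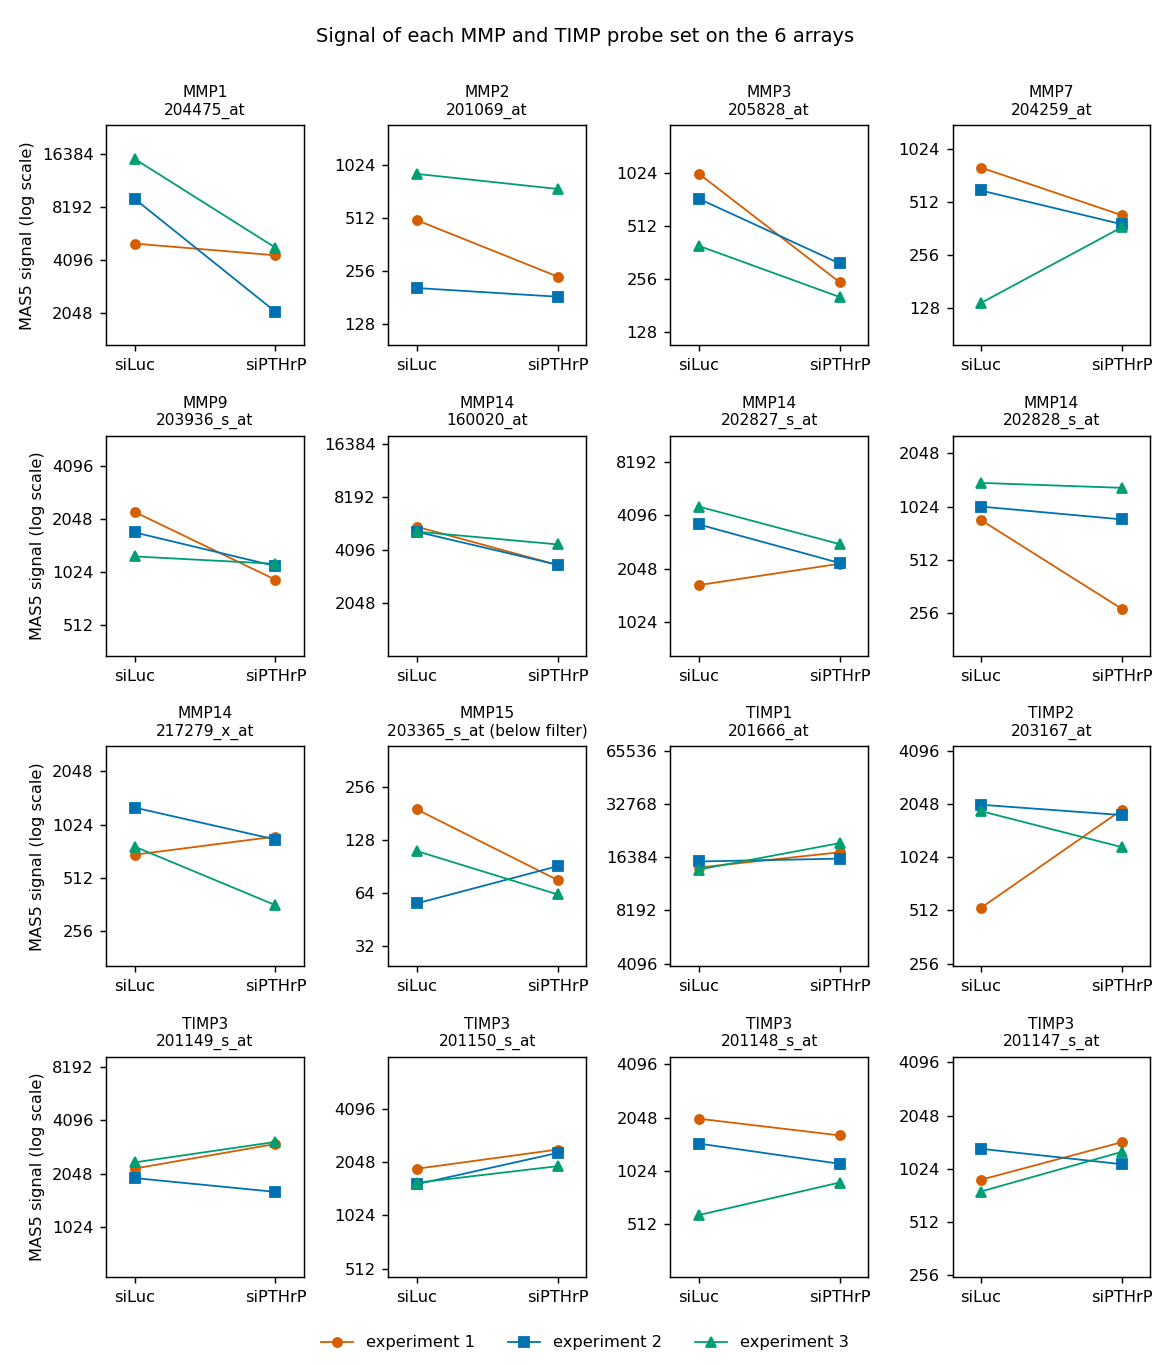
Signals of the members on a log axis in arbitrary units, with 1 panel per probe set and points for the 3 siLuc and 3 siPTHrP arrays joined by experiment. The MMP1, MMP3 and MMP9 panels and the brightest MMP14 panel show every siPTHrP point below every siLuc point. The panels of TIMP1 and of TIMP3 201150_s_at show the opposite order.

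MMP1 cleaves fibrillar collagens of types I, II and III. Its signal was 5070, 9099 and 15310 on the siLuc arrays of experiments 1, 2 and 3, and 4352, 2084 and 4805 on the siPTHrP arrays, or 9827 ± 5160 and 3747 ± 1460 (SD, n = 3). Every siPTHrP array was below every siLuc array, but the experiments differed widely: the log2 difference was -0.22 in experiment 1, -2.12 in experiment 2 and -1.67 in experiment 3. The mean log2 difference was -1.34 (SE 0.32), a fold of 0.396 with a 95% interval of 0.241 to 0.653. Its unadjusted limma p of 0.00227 ranked 94 of 13329, and the adjusted p was 0.322. These values lean on the spread of other probe sets of like signal. Without that intensity trend the SE was 0.439, the unadjusted limma p 0.0306, its rank 811 and the adjusted p 0.501. In a bulk sample fewer cells with the transcript and less transcript per cell cannot be told apart.

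MMP1 was the member whose call moved most with the arrays used. Without experiment 1 the log2 difference was -1.89 and the adjusted limma p 0.00053, the smallest of all probe sets. Experiment 1 holds the siLuc array that stands apart, and it also had the smallest MMP1 difference, at -0.22. Without experiment 3 the log2 difference was -1.17 with an adjusted p of 0.0216, and without experiment 2 it was -0.94 with an adjusted p of 0.16. With an experiment left out fewer arrays remain, and the limma p leans more on the spread of other probe sets. Weighting the experiments by their reproducibility in limma gave -1.79 and an adjusted p of 0.00126, with 1.33% of probe sets called. These array weights were 0.385, 2.24 and 1.16 for experiments 1, 2 and 3, the same for both arrays of an experiment. Experiment 2, which weighed most, had the largest MMP1 difference, at -2.12. Leaving out only the siLuc array of experiment 1, which takes the block away, gave -1.74 and an adjusted p of 0.261. Over all 13 alternatives the adjusted p ran from 0.00053 to 0.532 and was under 0.05 in 3 of them, and the log2 difference was below 0 in each. Ranked within each array, MMP1 stood at the 95.6th percentile of probe sets on average with siLuc and at the 86.5th with siPTHrP.

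MMP3, or stromelysin-1, degrades proteoglycans and fibronectin and can activate pro-MMP1. MMP3 signals were 1010, 728 and 394 with siLuc and 245, 313 and 202 with siPTHrP. All siPTHrP arrays lay below all siLuc arrays, and the lowest siLuc array was that of experiment 3. The log2 difference of -1.35 (SE 0.64) was close to that of MMP1, but its 95% interval reached from -2.80 to 0.09, and the adjusted limma p was 0.43. MMP3 was dim, at the 42nd percentile of mean signal, just above the filter. Probe sets of that decile of the signal range had a median log2 difference of -0.23, and 12.7% of them had all siPTHrP arrays below all siLuc arrays. The part of this trend in the MMP3 value was not tested.

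MMP7, or matrilysin, is a small MMP without the hemopexin domain that most others have. MMP7 signals were 802.2, 595 and 137 with siLuc and 431, 383 and 368 with siPTHrP. The siPTHrP arrays were close together, between the high siLuc arrays of experiments 1 and 2 and the low 1 of experiment 3, so the groups overlapped. The log2 difference was -0.05 (SE 0.71), with an adjusted limma p of 0.98. Its direction turned to 0.34 with quantile normalization, 0.03 with median centring and 0.42 without the siLuc array of experiment 1. The 95% interval of -1.65 to 1.55 left room for a difference as large as that of MMP1 in either direction.

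The gelatinases MMP2 and MMP9 cleave denatured collagen and type IV collagen of basement membranes. MMP9 signals were 2241, 1716 and 1254 with siLuc and 925, 1106 and 1139 with siPTHrP, 1737 ± 494 and 1057 ± 115. The groups did not overlap, with the lowest siLuc array, of experiment 3, only a little above the highest siPTHrP array. The MMP9 log2 difference was -0.68 (SE 0.34), a fold of 0.626, with an adjusted limma p of 0.451. By experiment it went from -1.26 in experiment 1 through -0.63 in experiment 2 to -0.14 in experiment 3, and it was -0.47 without the siLuc array of experiment 1.

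MMP2 signals were 497, 205 and 908 with siLuc and 238, 183 and 746 with siPTHrP. Both groups had their highest MMP2 array in experiment 3, so the groups overlapped while each experiment, as numbered here, was lower with siPTHrP. That rests on the numbering, as the siPTHrP array of experiment 3, at 746, was above the siLuc array of experiment 2, at 205. The mean log2 difference was -0.48 (SE 0.66), a fold of 0.716 with an adjusted limma p of 0.765. Of this, experiment 1 gave -1.01, and the others -0.15 and -0.28. Quantile normalization reduced the mean to -0.17. MMP2 was at the 40.5th percentile of mean signal, next to the filter and in the same decile as MMP3.

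MMP14 and MMP15 are membrane-type MMPs that act at the cell surface, where MMP14 activates pro-MMP2 with TIMP2 as a bridge. The brightest MMP14 probe set, 160020_at, read 5568, 5213 and 5221 with siLuc and 3378, 3388 and 4419 with siPTHrP, or 5334 ± 203 and 3728 ± 598. Its siLuc arrays agreed closely, that of experiment 1 included, and every siPTHrP array was lower. The log2 difference was -0.53 (SE 0.20), a fold of 0.695, with an unadjusted limma p of 0.0251 and an adjusted p of 0.39. It lay between -0.67 and -0.43 under all 13 alternatives, with adjusted p from 0.145 to 0.64. Within arrays its mean percentile was 92.7 with siLuc and 88 with siPTHrP.

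The other 3 MMP14 probe sets were also lower on average, but each with overlapping groups. Probe set 202827_s_at read 1649, 3640 and 4596 with siLuc and 2180, 2201 and 2815 with siPTHrP. It was higher with siPTHrP in experiment 1 by a log2 of 0.40 and lower in experiments 2 and 3, at -0.72 and -0.70. Probe set 202828_s_at had most of its difference in experiment 1, at -1.62, with -0.24 and -0.09 in the others. Probe set 217279_x_at had log2 differences of 0.33, -0.59 and -1.07. The mean log2 differences of these 3 were -0.34, -0.65 and -0.44, with adjusted limma p of 0.601, 0.548 and 0.692. With the siLuc array of experiment 1 left out, all 4 MMP14 values lay between -0.80 and -0.50.

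MMP15 signals were 191.2, 56 and 111 with siLuc and 76, 91 and 63 with siPTHrP. This was the dimmest member, at the 9.64th percentile, under the filter and with no test in the fit. Its mean log2 difference of -0.43 came from experiments 1 and 3, at -1.17 and -0.68, while experiment 2 was at 0.57. Leaving out the siLuc array of experiment 1 brought it to -0.06, and quantile normalization to 0.08. In the dimmest decile of probe sets, where MMP15 lay, the median log2 difference was -0.80 and 89.2% were below 0.

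TIMP1 is a secreted inhibitor of most soluble MMPs and a weak inhibitor of membrane-type MMPs such as MMP14. TIMP1 signals were 14330, 15510 and 13950 with siLuc and 17490, 16100 and 19710 with siPTHrP, or 14600 ± 813 and 17770 ± 1820. All siPTHrP arrays were above all siLuc arrays, most narrowly in experiment 2. The log2 difference was 0.28 (SE 0.16), a fold of 1.21, with an adjusted limma p of 0.49. In the brightest decile of probe sets, to which TIMP1 and MMP1 belong, the median log2 difference was 0.14 and 17.5% had every siPTHrP array above every siLuc array. Quantile normalization took the TIMP1 value down to 0.10, and its percentile within arrays, 97.7 with siLuc and 97.9 with siPTHrP, overlapped between groups.

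TIMP2 takes part both in inhibition of MMPs and, at the cell surface, in the activation of pro-MMP2 by MMP14. TIMP2 signals were 528.7, 2033 and 1872 with siLuc and 1898, 1777 and 1170 with siPTHrP. The siLuc array of experiment 1 was the lowest by far and set the direction of the mean. The log2 difference was 0.32 (SE 0.46), with an adjusted limma p of 0.779, and it was -0.30 without that array. By experiment it was 1.81, -0.19 and -0.67.

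TIMP3 binds to the extracellular matrix and inhibits ADAM17, the protease that sheds tumour necrosis factor, as well as MMPs. Probe set 201150_s_at read 1880, 1536 and 1566 with siLuc and 2415, 2310 and 1944 with siPTHrP, or 1661 ± 191 and 2223 ± 247. Its siPTHrP arrays were all above its siLuc arrays, with a log2 difference of 0.42 (SE 0.26), a fold of 1.33 and an adjusted limma p of 0.504. The brightest TIMP3 probe set, 201149_s_at, read 2185, 1931 and 2367 with siLuc and 3011, 1612 and 3093 with siPTHrP. Experiment 2 ran against the others there, so the groups overlapped and the log2 difference was 0.20 (adjusted limma p 0.754). Probe set 201147_s_at had a log2 difference of 0.38 with an adjusted limma p of 0.667, and 201148_s_at had -0.03 with an adjusted p of 0.978. Thus 3 of 4 TIMP3 probe sets were higher on average, and 201148_s_at turned to 0.35 without the siLuc array of experiment 1.

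**Figure D2:**
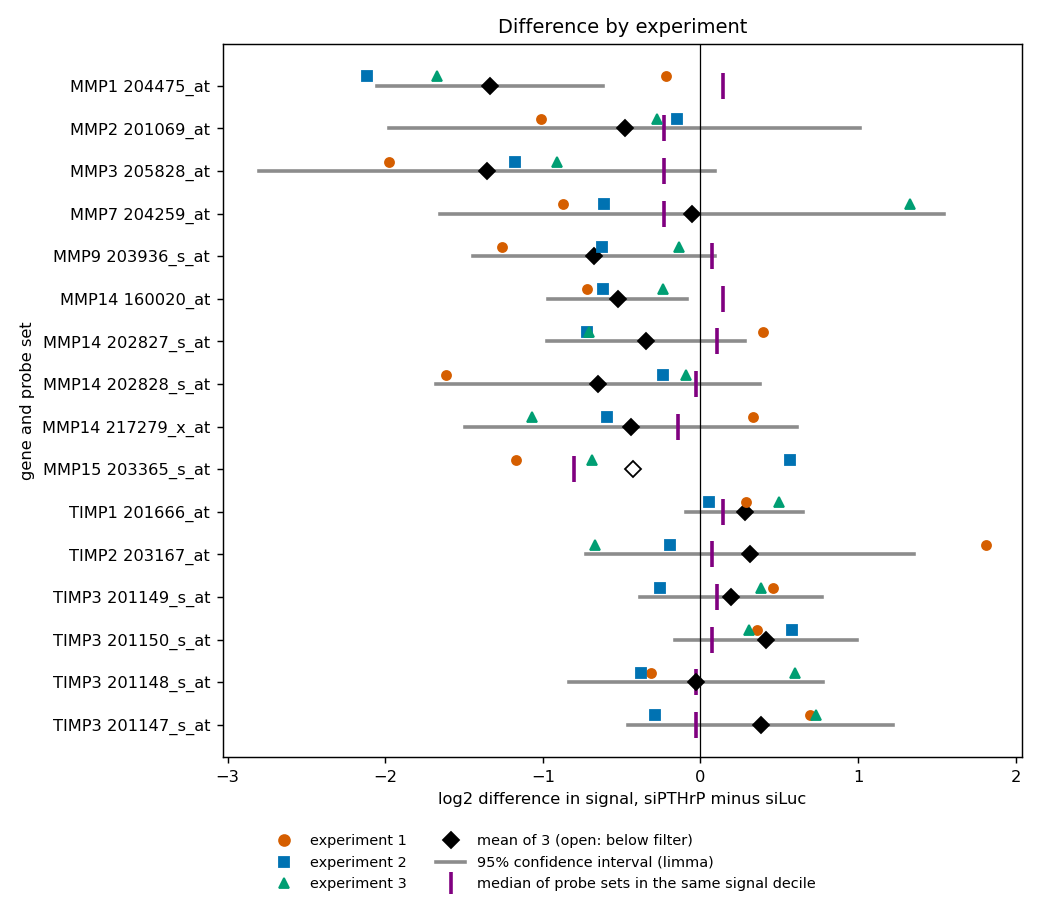
Log2 difference, siPTHrP minus siLuc, of each member probe set: small points are the 3 experiments, large points their mean, and bars the 95% interval of the limma fit (none for MMP15, which was under the filter), with vertical ticks at the median of all probe sets in the same signal decile. Only the bars of MMP1 and of MMP14 160020_at lie clear of 0, and those intervals are not adjusted for the number of probe sets.

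The direction of the average difference moved with signal over all probe sets, as the plot of members against probe sets of like signal shows. From the dimmest to the brightest decile the median log2 difference went from -0.80 to 0.14, and without the siLuc array of experiment 1 from -0.45 to 0.05. MMP1 and MMP14 160020_at lay in the brightest decile, where the median was above 0, 32% of probe sets were below 0 and 3.92% had all siPTHrP arrays below all siLuc arrays. MMP9 lay in the eighth decile, with a median of 0.07 and 9.18% of probe sets with all siPTHrP arrays below. MMP2, MMP3 and MMP7 lay in the fifth, with a median of -0.23 and 61.8% below 0.

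**Figure D3:**
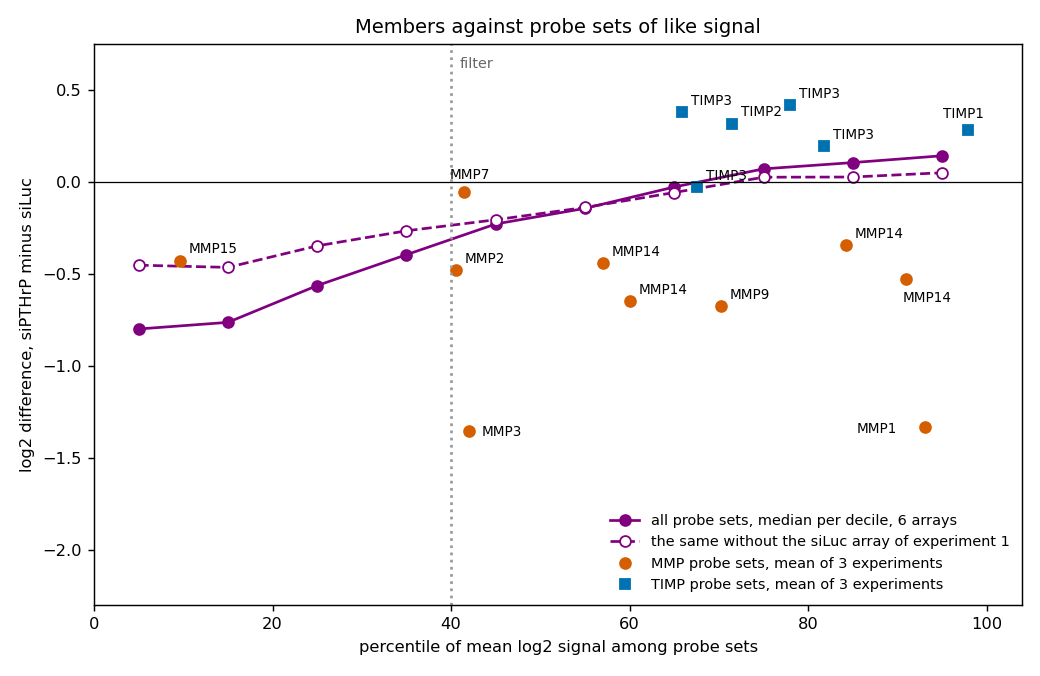
Log2 difference of each member probe set against the percentile of its mean signal, with the median of all probe sets per decile of signal (solid line, 6 arrays; dashed line, without the siLuc array of experiment 1) and the filter as a dotted line. MMP1 at -1.34 and MMP14 lie below the lines at the bright end, where the median is 0.14. At the dim end MMP15, at -0.43 over 6 arrays, lies above the solid line, where the median is -0.80.

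MMP1, MMP3 and MMP7 lie in a row of 9 neighbouring protein-coding genes on chromosome 11, all MMPs, in the RefSeq order MMP7, MMP20, MMP27, MMP8, MMP10, MMP1, MMP3, MMP12 and MMP13. All 9 were on the array and 5 passed the filter: MMP7, MMP27, MMP1, MMP3 and MMP12. MMP27, an MMP of little known function, read 2303, 598 and 788 with siLuc and 476, 476 and 387 with siPTHrP. All siPTHrP arrays were lower, with a log2 difference of -1.18 and an adjusted limma p of 0.41. MMP12, the macrophage elastase, had log2 differences of -2.29, 0.09 and -1.05 by experiment and an adjusted limma p of 0.529. Of the 4 under the filter, MMP8, MMP10 and MMP13 averaged -1.16, -0.98 and -0.55 and MMP20 0.71, with overlapping groups in each. MMP1 was the only gene of the row whose difference was smallest in size in experiment 1, at -0.22, while its neighbour MMP3 had its largest there, at -1.98.

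**Figure D4:**
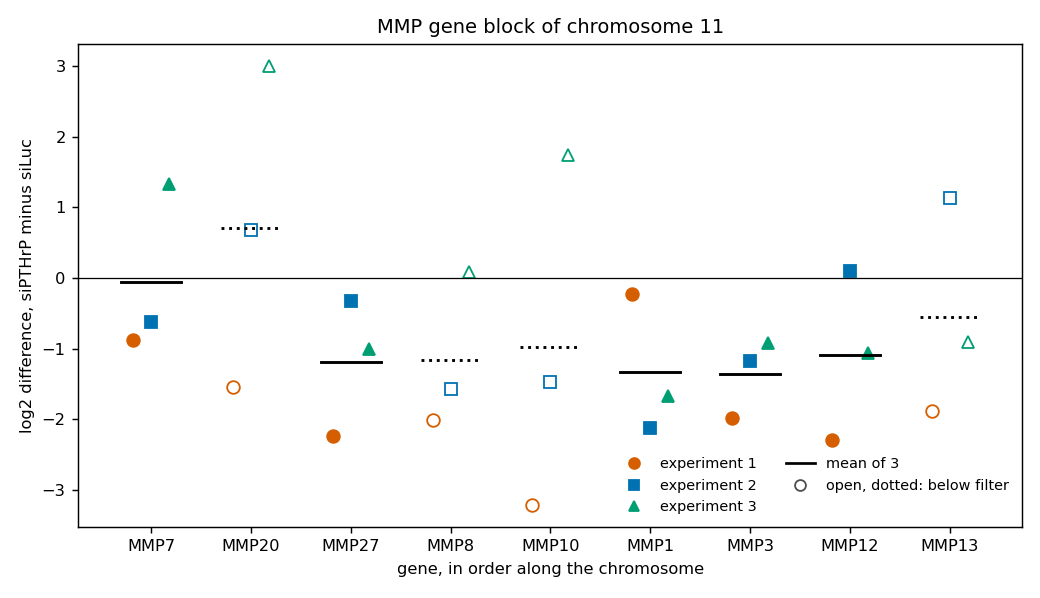
Log2 difference, siPTHrP minus siLuc, of the 9 MMP genes of chromosome 11 in their order along the chromosome, with points for the 3 experiments and the mean of each gene, and genes under the filter set apart by their marker. The means of MMP27, MMP1 and MMP3 lie between -1.35 and -1.18, and MMP20, under the filter, is the gene with a mean above 0.

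Among the genes measured, the 5 whose brightest probe set followed MMP1 most closely over the 6 arrays were IL9R, SULT1B1, RAP1GAP, DMTN and CACNA1D. The measure was the root mean square difference of log2 signals centred on their mean over the arrays, 0.269 for IL9R to 0.398 for CACNA1D, against a median of 0.988 over 8119 genes. Their log2 differences were -1.15, -0.79, -0.88, -1.24 and -0.58. For IL9R, the interleukin 9 receptor, and RAP1GAP, which inactivates the GTPase RAP1, all siPTHrP arrays were below all siLuc arrays. That held for 9.69% of all probe sets tested, and the groups overlapped for the other 3 genes. As the genes were picked for following MMP1 on these same arrays, lower values with siPTHrP follow from the choice and are no separate result. No other MMP was among these 5.

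The list of further MMPs and TIMP4 held 15 genes on the array, of which 7 passed the filter. By brightest probe set 6 of these were below 0 and 1 above, and 0 passed the adjusted threshold in either direction. The median log2 difference was -0.94 (-0.81 by the mean of probe sets). At an unadjusted limma p under 0.05, 2 were lower and 0 higher, beside 5.36% and 6.77% of all probe sets tested. The lower 2 were MMP27 and MMP25, a membrane-anchored MMP of leukocytes, which stood at 0.523-fold by 207890_s_at while its other probe set, 207289_at, had a log2 difference of 0.41. Neither stayed under that threshold without the siLuc array of experiment 1, with a log2 of -0.61 for MMP27 (unadjusted limma p 0.151) and -0.55 for MMP25 (0.155). MMP19 was at 0.446-fold (unadjusted limma p 0.0861), and at a log2 of -0.76 without that array. MMP11, or stromelysin-3, was the gene above 0, with 398, 1055 and 1483 in siLuc and 1461, 1472 and 1502 in siPTHrP by 203878_s_at. Most of this 1.71-fold came from experiment 1, and the log2 difference went from 0.78 to 0.24 without that siLuc array. Under the filter, MMP11 203876_s_at read 260.9, 227 and 242 with siLuc and 373, 388 and 517 with siPTHrP, higher on every siPTHrP array. MMP11 203877_at, also under the filter, had a log2 difference of -0.45 with overlapping groups. Most of this list was dim, a range in which probe sets were lower in general with siPTHrP, and the part of that trend was not tested.

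Of 22 activators, membrane partners and other inhibitors on the array 17 passed the filter, 10 above 0 and 7 below, with a median log2 difference of 0.10 (0.27 by the mean of probe sets), and none passed the adjusted threshold in either direction. At the unadjusted threshold 4 were higher and 1 lower, beside 6.77% and 5.36% of all probe sets tested. The lower gene was FURIN, the convertase that removes the pro-domain of MMP14 in the secretory pathway. FURIN signals were 3460, 1755 and 4309 with siLuc and 1218, 991 and 2036 with siPTHrP. Each experiment was lower with siPTHrP, though the siPTHrP array of experiment 3 was above the siLuc array of experiment 2. Its log2 difference was -1.13 (SE 0.26), a fold of 0.458, and its unadjusted limma p of 0.00199 ranked 79, with an adjusted p of 0.322. Higher at that threshold were PLAU at 1.55-fold, the urokinase that generates plasmin, LGALS3, or galectin-3, at 1.52-fold and the tetraspanin CD9 at 1.37-fold. The remaining gene, named here after its values were seen, was BSG at 1.30-fold, a membrane glycoprotein also called EMMPRIN for its induction of MMPs. BSG signals were 8975, 10120 and 11240 with siLuc and 13680, 12910 and 12740 with siPTHrP, with an adjusted limma p of 0.41. In these 4 genes every siPTHrP array was above every siLuc array, as in 17.5% of all probe sets of the brightest decile, to which they belong. Leaving out the siLuc array of experiment 1 took LGALS3 to a log2 of 0.32 (unadjusted limma p 0.139).

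The ADAM and ADAMTS proteases, related metalloproteinases that shed membrane proteins or cleave proteoglycans, had 11 of 16 genes over the filter. Their median log2 difference was 0.07, with 7 above 0 and 4 below, and it turned to -0.07 when a gene was taken as the mean of its probe sets. At the unadjusted threshold 1 was lower and 0 higher, beside 5.36% and 6.77% of all. It was ADAMTS1, which cleaves aggrecan and versican, at 0.549-fold with an adjusted limma p of 0.36. ADAM23 stood at 0.496-fold, ADAM9 at 1.28-fold (a log2 of 0.36, and 0.85 without the siLuc array of experiment 1) and ADAM15 at 0.848-fold. None of the 11 passed the adjusted threshold.

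Of the extracellular matrix substrates 15 of 22 passed the filter, 10 above 0 and 5 below. Their median log2 difference was 0.28 (0.18 by the mean of probe sets). At the unadjusted threshold 2 were higher and 0 lower, beside 6.77% and 5.36% of all. They were COL4A2, a chain of type IV collagen, at 1.76-fold (adjusted limma p 0.324) and LAMA5, the laminin alpha 5 chain, at 1.85-fold (adjusted limma p 0.328). Both lay in the ninth decile of signal, where 38.1% of all probe sets were below 0. FN1, fibronectin, was at 1.38-fold (a log2 of 0.47, and 0.23 without the siLuc array of experiment 1) and COL6A2, a chain of type VI collagen, at 0.557-fold. None passed the adjusted threshold.

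The AP-1, ETS and other factors known to act at MMP promoters had 18 of 21 genes over the filter, 12 above 0 and 6 below, with a median of 0.07. At the unadjusted threshold 2 were higher and 0 lower, beside the same shares. They were the C/EBP factor CEBPB at 1.57-fold (unadjusted limma p 0.00646, adjusted 0.328) and the ETS factor ELK4 at 3.12-fold (unadjusted 0.0291). JUND was at 1.24-fold. ELK3 was at 1.75-fold, nearly all of it from experiment 1, with log2 differences of 2.22, -0.04 and 0.26 by experiment. Of the inducers of MMP genes, mostly cytokines and growth factors with their receptors, 14 of 18 passed the filter, 6 above 0 and 8 below, with a median of -0.01. At the unadjusted threshold 3 were higher, beside 6.77% of all, and 0 lower: LIF at 1.89-fold, TGFB1 at 1.55-fold and F2R, the thrombin receptor, at 2.00-fold. Leaving out the siLuc array of experiment 1 took LIF from a log2 of 0.92 to 0.31 (unadjusted limma p 0.434) and TGFB1 from 0.63 to 0.37 (0.0785), and LIF was at -0.05 in experiment 3. IL1A, which induces MMP1 and MMP3 in many cells, was at 0.404-fold with an unadjusted limma p of 0.0735. It was dim, at the 41.2nd percentile of mean signal, in the decile of MMP3, where 61.8% of probe sets were below 0. A link of its value to those of MMP1 and MMP3 was not tested. In both lists 0 genes passed the adjusted threshold.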

How the data were processed

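Total RNA (RNeasy) was labelled with biotin and hybridised, each RNA to its own array, as the labels' protocols state. The authors deposited linear signal intensities made with MAS5, per the submitters' processing notes, with no version given in the sources used here. Mean intensity trimmed by 2% at each end lay at 1500.4 to 1500.6 on all arrays, and this scaling was kept. MAS5 subtracts mismatch signal, so dim probe sets are noisy.

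After leaving out 68 control probe sets of 22283, 13329 had a mean log2(intensity + 16) at or above its 40th percentile (8.614). R 4.3.3 and limma 3.58.1 fitted siRNA and experiment with an intensity trend (2 residual and 7.17 prior degrees of freedom). P-values were two-sided. The annotation names 1 gene on 19071 probe sets, more than 1 on 1043 and none on 2169, and 19059 symbols were updated through Entrez to GRCh38.p14 names. The array files name no genome build, so RefSeq was used for names, gene order and start regions only.

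The design text pairs RNAs by experiment number. Deviations from the group means correlated at -0.0762, 0.134 and 0.0627 for the same experiment and at -0.211 to 0.144 for different ones. Members and gene lists were chosen with earlier results of these data known. The rule for named genes took every member probe set, up to 4 genes per list with the smallest p, and the 5 genes nearest to MMP1. A gene was counted by its brightest probe set. Alternatives were a fit with no replicate block, quantile normalization, offsets of 1 and 64, no trend, array weights, median centring, a filter at the 60th percentile or none, and leaving out each experiment or the siLuc array of experiment 1. The steps were tested on simulated data.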

Additional observations from a re-analysis of the deposited data

How the results depend on the processing

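Across the 13 alternatives 12 of 16 member values kept their sign, and MMP15 turned to 0.08 with quantile normalization. MMP7 turned to 0.34 with quantile normalization and 0.0282 with median centring, and ran from -0.74 to 0.42 when an experiment or the siLuc array of experiment 1 was left out. TIMP3 201148_s_at turned to 0.0635 and 0.0522 under the same 2 scalings and ran from -0.34 to 0.35. TIMP2 turned to -0.14 with array weights and ran from -0.43 to 0.81. The cause of these turns was not tested. The median over all probe sets tested moved from 0.03 to 0.09 with quantile normalization and 0.11 with median centring. Array weights called 177 probe sets, and leaving out arrays called 0 to 175 (0 without the siLuc array of experiment 1, 38, 46 and 175 without experiments 1, 2 and 3). Members called numbered 1 with array weights and 0 to 1 with arrays left out, MMP1 each time. List genes past the threshold numbered 1 with array weights, LAMA5 (log2 0.91, adjusted limma p 0.0483), and 0 to 2 with arrays left out, CEBPB at 0.83 and ELK3 at 1.09, both without experiment 3, while without experiment 1 they were at 0.44 and 0.11 (adjusted limma p 0.283 and 0.86). Without the replicate block of the paired fit 0 probe sets and 0 members were called, and MMP1 stood at -1.34 with an adjusted limma p of 0.449. Signals of MMP2, MMP3 and MMP7 lay next to the filter and that of MMP15 under it, and the 95% intervals were wide there, from -1.97 to 1.01 for MMP2.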
